A study of Mus musculus with 2 samples.

Results

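The adhesion genes Icam1, Icam2, Itgal, Itgb2, Itga4, Itgb1, Itgb7, Itgae, Selplg and Cd44 were followed in activated mouse primary T cells with and without triptolide. These 10 genes were chosen as adhesion genes of T cells, among them Icam1 and its integrin receptor, and every probe set annotated to exactly 1 of these symbols was taken. They are 10 of the 18193 genes with such a probe set, and 24 of the 45037 probe sets on the array. One array held RNA of T cells that received anti-CD3 and anti-CD28 antibodies together with triptolide at 50 ng/ml. The other held RNA of T cells that received the same antibodies without triptolide. Both arrays therefore came from stimulated cells, and no unstimulated sample was analysed here. Cells were cultured for 18 h, per the labels' protocols, but the length of the triptolide exposure, the mouse strain and age, and the number of animals are not given in the labels. With 1 array per group there was no replicate check, so no difference below was tested between the conditions.

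T cells carry integrins, paired receptors of an α and a β chain, which bind ligands of the immunoglobulin superfamily on other cells and on the vessel wall once signals from inside the cell have switched them to their active form. LFA-1, the pair of Itgal and Itgb2 products, binds ICAM-1 and ICAM-2. The α chain encoded by Itga4 pairs with either the Itgb1 or the Itgb7 product, and the Itgb7 product also pairs with that of Itgae, the CD103 chain of T cells in epithelium. Selplg encodes PSGL-1, the main selectin ligand of leukocytes, and Cd44 encodes a hyaluronan receptor typical of activated and memory T cells. Triptolide is a plant diterpenoid that binds the XPB subunit of the transcription factor TFIIH and inhibits transcription.

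With triptolide, the ICAM genes and Cd44 had higher signals, while the integrin β chain genes Itgb2 and Itgb7 and the selectin ligand gene Selplg had lower ones. Values are MAS5 signals, and a gene is represented by its brightest probe set. Signals under a background floor of 118 were set to it before ratios were taken. A gene was counted as detected with that probe set above the floor on at least 1 array, which held for 10 of the 10 genes. Icam1 and Icam2 were at least 2-fold higher, Itgb2, Itgb7 and Selplg were at least 2-fold lower, and the other 5 lay within 2-fold. Among the 10883 detected genes, 5.60% were at least 2-fold higher and 12.3% at least 2-fold lower, against 20% and 30% of these 10. The 10 genes were chosen with earlier results of these data known, so these shares are a description only. The median log2 ratio was -0.16 for the 10 genes and -0.16 for all detected genes, with members on both sides of it. Of all genes at least 2-fold apart, 68.8% were lower with triptolide in the deposited values. That share was 58.0% after scaling the arrays to 1 median (median log2 ratio of all detected genes -0.051) and 50.8% after quantile normalization (median 0.0044).

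Other facts of the arrays bear on these values. T cell markers were above the floor for 13 of 13 genes with a probe set, with a summed signal of 50178 with triptolide and 74965 without. Of these 13 genes, 5 were at least 2-fold lower (38.5%, against 12.3% of all detected genes). Of B cell markers, 12 of 14 were detected, with Pax5 and Cr2 under the floor and sums of 9825 and 11827. Those sums hide opposite directions. Cd22, Blnk, H2-Aa and H2-Ab1 were at least 2-fold lower (33.3% of those detected, against 12.3% of all detected genes). Cd74 was 2.00-fold and Cd79a 1.93-fold higher. Of myeloid markers, 10 of 15 were detected, with Cd14, Itgam, Fcgr3, Aif1 and Cd300a under the floor and sums of 7943 and 6058, most of it from Ctss. Of the 10 detected myeloid markers, 8 had a log2 ratio above 0, where 60.2% of all detected genes had one below 0. Several of the 8 were close to 0 or to the floor, among them Csf1r (0.083), Cd68 (0.17) and Tyrobp (135 with triptolide, 112 without). Lyz2 was at least 2.19-fold higher and Mpeg1 at least 2.88-fold lower. The dendritic cell markers Itgax, Flt3, Xcr1, Siglech and Cd209a were under the floor on both arrays (2 of 7 detected, sums 356 and 535), as were the endothelial and stromal markers Cdh5, Tek, Kdr, Emcn, Dcn, Col1a1, Col1a2 and Col3a1 (2 of 10 detected, sums 842 and 872). For natural killer cell markers the sums were 2816 and 2344 (4 of 7 detected, Ncr1 under the floor). Neutrophil markers summed to 558 and 645 (4 of 7 detected) and erythroid markers to 202 and 235 (0 of 4 detected). Platelet markers summed to 1347 and 918 (3 of 6 detected), with Gp5 2.92-fold and Itga2b 2.13-fold higher, Itgb3 at least 2.10-fold lower, and Pf4, Ppbp and Gp9 under the floor. The 10 adhesion genes are expressed by several of these cell types too, and the part of other cells in their ratios was not tested. In bulk RNA, fewer cells of a type and less RNA per cell cannot be told apart.

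Without replicates, the spread between probe sets of 1 gene was the only measure of precision. In 3733 genes with at least 2 probe sets that exceeded the floor with and without triptolide, the SD of a log2 ratio was 0.49 per probe set, and the SD of the difference between the 2 brightest was 0.69. In 72.0% of these genes the 2 brightest probe sets had the same direction, and in 95% they differed by at most 1.46. This spread between probe sets covers probe behaviour and transcript variants, not variation between cultures or animals. A 2-fold difference on a single probe set lies about 2 of these SDs from 0. Of the 10 genes, 5 (Icam1, Icam2, Itgb2, Itgb7 and Selplg) have a single probe set, and these are the same 5 that were at least 2-fold apart.

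**Figure D1:**
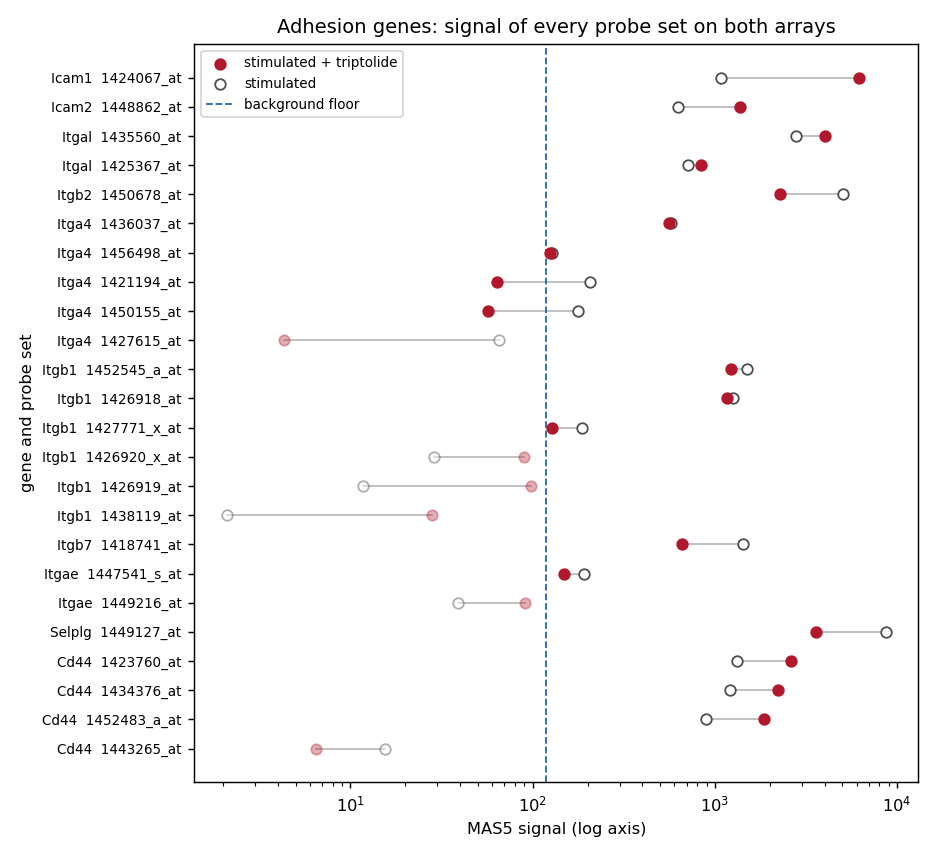
MAS5 signal (log axis) of each of the 24 probe sets of the 10 adhesion genes, filled for stimulated cells with triptolide and open for stimulated cells without it, with the background floor of 118 as a dashed line and probe sets under it on both arrays in pale colour. The filled points lie to the right for Icam1, Icam2, Itgal and the 3 bright Cd44 probe sets, and to the left for Itgb2, Itgb7 and Selplg.

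Icam1 encodes ICAM-1 (CD54), the inducible ligand of LFA-1 that also stands on activated T cells themselves. Its probe set, 1424067_at, had a signal of 6179 with triptolide and 1081 without, a difference of 5.72-fold (log2 ratio 2.52, or 2.68 above the median of all genes). The triptolide array was thus far higher, by 5.15 times the SD between probe sets. Of all detected genes, 0.276% had a ratio as high or higher, and Icam1 stood at rank 30 of 10883.

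Icam2 encodes ICAM-2 (CD102), a second LFA-1 ligand that is present on resting leukocytes and endothelium. It had a signal of 1365 with triptolide and 630 without, which is 2.17-fold higher (log2 ratio 1.11). Of all detected genes, 4.45% had a ratio as high or higher, and the log2 ratio was 2.28 times the SD between probe sets, so Icam2 was set apart less than Icam1. Both LFA-1 ligands among the 10 genes thus had higher signals on the triptolide array. The log2 ratio of Icam1 was 1.40 above that of Icam2, or 2.03 times the SD of a difference between probe sets. That is inside the 1.46 within which 95% of the differences between probe sets of 1 gene lay.

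The sequences before the start sites of Icam1, Cd44 and Itgb1 are shown because they are the promoters of the gene with the highest ratio, of another gene with a higher signal and of one well within 2-fold. They were taken from a set of RefSeq promoter sequences (GRCm38.p6). The set used here held an entry for 5 of the 10 genes, and none for Icam2, Itgal, Itgb2, Itgae or Selplg. Each printed sequence runs over the 250 bases before the start, 5′ to 3′ on the gene's strand. Icam1 lies at chr9:21015690-21015939 (+ strand), Cd44 at chr2:102901666-102901915 (- strand) and Itgb1 at chr8:128685404-128685653 (+ strand). Capitals mark matches, on either strand, to any of 6 motifs searched: an NF-κB motif (GGANNTTCC), an AP-1 motif (TGANTCA), a GC box (GGGCGG), a STAT motif (TTCNNNGAA), a TATA box (TATAAA) and a CCAAT box (CCAAT).
Icam1: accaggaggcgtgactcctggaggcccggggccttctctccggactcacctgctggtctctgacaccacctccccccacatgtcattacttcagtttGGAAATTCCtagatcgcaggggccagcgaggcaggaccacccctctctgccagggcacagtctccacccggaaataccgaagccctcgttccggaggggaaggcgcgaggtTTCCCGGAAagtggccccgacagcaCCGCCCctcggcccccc
Cd44: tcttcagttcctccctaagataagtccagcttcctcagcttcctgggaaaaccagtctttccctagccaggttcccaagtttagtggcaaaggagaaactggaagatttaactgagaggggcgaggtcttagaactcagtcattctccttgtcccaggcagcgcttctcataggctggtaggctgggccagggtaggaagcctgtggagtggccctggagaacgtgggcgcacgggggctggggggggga
Itgb1: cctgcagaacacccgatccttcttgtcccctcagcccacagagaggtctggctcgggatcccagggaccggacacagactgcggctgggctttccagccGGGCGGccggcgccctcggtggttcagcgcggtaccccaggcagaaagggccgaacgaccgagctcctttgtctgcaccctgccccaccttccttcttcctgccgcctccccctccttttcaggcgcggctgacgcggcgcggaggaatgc

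The Icam1 window held 1 NF-κB match from base -153 to -145 before the start, 1 STAT match from -42 to -34 and 1 GC box from -17 to -12, none of them overlapping another. NF-κB and STAT factors carry signals of inflammatory cytokines and antigen receptors, and induction of ICAM1 through both is textbook knowledge for the human gene. The Cd44 window held no match to any of the 6 motifs, and the Itgb1 window held 1 GC box. The windows of Itga4 and Itgb7, not printed, held 1 GC box and no match. Of 32851 windows of the same length, of which a gene may have several, 3.59% held the NF-κB motif, 7.02% the STAT motif and 32.7% the GC box. The AP-1 motif, the TATA box and the CCAAT box were in 6.75%, 12.4% and 33.9%. The letters describe these windows only, and a match is not evidence that a factor binds there.

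Itgal encodes the α chain of LFA-1, CD11a. Its brighter probe set had a signal of 4030 with triptolide and 2787 without (log2 ratio 0.53). On the other probe set the signals were 837 with triptolide and 709 without (log2 ratio 0.24). Both were slightly higher on the triptolide array and well within 2-fold, and the larger ratio is 1.09 times the SD between probe sets.

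Itgb2 encodes CD18, the β chain that LFA-1 shares with the other leukocyte integrins of its family. It had a signal of 2277 with triptolide and 5031 without, which is 2.21-fold lower (log2 ratio -1.14). The chains of LFA-1 thus differed in direction. The log2 ratio of Itgal was 1.68 above that of Itgb2, a 3.20-fold change in their ratio and 2.43 times the SD of a difference between probe sets. Such a difference does not depend on the 1 factor by which each array is scaled, unlike either ratio alone, and it was 1.67 after quantile normalization. With the dimmer Itgal probe set (log2 ratio 0.24), the difference from Itgb2 was smaller. It then lay inside the 1.46 that held 95% of the differences between probe sets of 1 gene.

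Among the 11 pairs of partner genes compared, Icam1 and Itgb2 lay farthest apart. The log2 ratio of Icam1 was 3.66 above that of Itgb2 (12.6-fold, 5.30 times the SD of a difference) and 1.98 above that of Itgal. The log2 ratio of Icam2 was 2.26 above that of Itgb2. It was 0.58 above that of Itgal, which is inside 1 SD of a difference. Of the other α chains that pair with CD18, Itgam had a signal of 47.0 with triptolide and 60.4 without, and Itgax one of 13.8 with triptolide and 7.0 without, under the floor on both arrays.

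**Figure D2:**
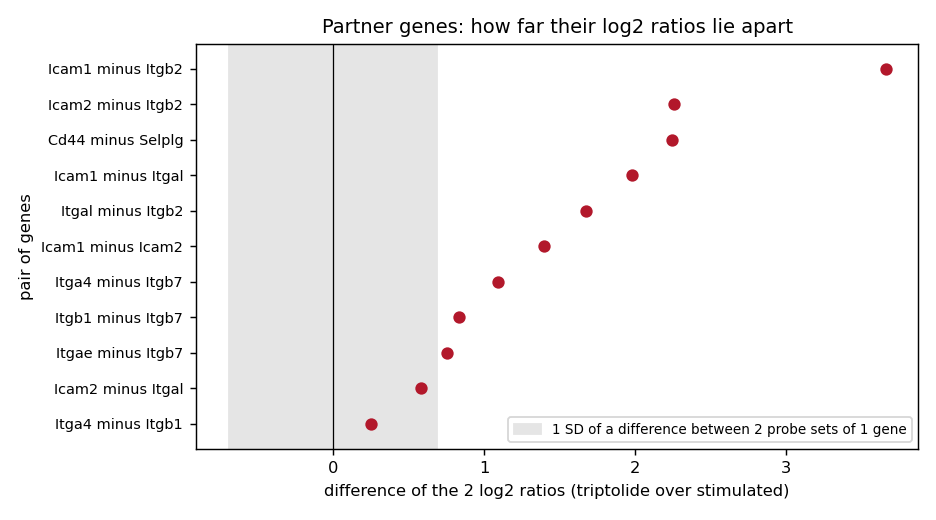
Difference between the log2 ratios (triptolide over stimulated) of 11 pairs of genes whose products bind each other, share a partner or act in the same adhesion step, with the band of 1 SD of a difference between probe sets of 1 gene (0.69) in grey. The points run from 0.25 for Itga4 minus Itgb1 to 3.66 for Icam1 minus Itgb2, and the pairs Icam2 with Itgal and Itga4 with Itgb1 lie inside the band.

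Itga4 encodes the α4 chain, CD49d, of VLA-4 and of the gut-homing integrin α4β7. Its brightest probe set, 1436037_at, had a signal of 561 with triptolide and 573 without (log2 ratio -0.031). A second one, close to the floor, gave 125.0 with triptolide and 128.0 without (log2 ratio -0.034). Both were level between the arrays. On 2 further probe sets the signal was under the floor with triptolide: 1421194_at gave 63.3 with triptolide against 207 without, at least 1.75-fold lower, and 1450155_at gave 57.0 against 176.5, at least 1.49-fold lower. These 2 probe sets were lower with triptolide where the other 2 were level, and the remaining one lay under the floor on both arrays, so the gene's direction depends on the probe set.

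Itgb1 encodes CD29, the β1 chain of VLA-4 and of many other integrins. Its brightest probe set had a signal of 1231 with triptolide and 1500 without (log2 ratio -0.28). The next gave 1171 with triptolide and 1250 without (log2 ratio -0.093), and a dim one gave 128 with triptolide and 187.5 without (log2 ratio -0.55). The 3 probe sets were slightly lower with triptolide and within 2-fold, and 3 more were under the floor on both arrays. The log2 ratios of the VLA-4 chains, Itga4 and Itgb1, were 0.25 apart, which is 0.369 times the SD of a difference between probe sets.

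Itgb7 encodes the β7 chain of the mucosal integrins α4β7 and αEβ7. It had a signal of 659 with triptolide and 1433 without, which is 2.18-fold lower (log2 ratio -1.12, 2.30 times the SD between probe sets). The α4 chain gene thus stood 1.09 above Itgb7 in log2 ratio (1.58 times the SD of a difference), and Itgb1 stood 0.84 above it (1.21 times). Itgae, the CD103 chain that pairs with β7, was barely above the floor, at 148 with triptolide and 191 without (log2 ratio -0.37). Its other probe set was under the floor on both arrays, at 90.6 with triptolide and 38.8 without, so for Itgae these arrays give a level near background and no clear direction.

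Selplg, the PSGL-1 gene, had the lowest ratio of the 10 genes. Its signal was 3579 with triptolide and 8635 without, which is 2.41-fold lower (log2 ratio -1.27, 2.60 times the SD between probe sets). Of all detected genes, 6.83% had a ratio as low or lower.

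Cd44 went the other way on 3 probe sets. Their signals with triptolide and without were 2602 and 1325 on the brightest (log2 ratio 0.97), 2225 and 1212 on the next (log2 ratio 0.88) and 1850 and 888 on the third (log2 ratio 1.06). The 3 log2 ratios lay between 0.88 and 1.06, on both sides of the 2-fold line, so Cd44 is best read as close to 2-fold higher, although its brightest probe set, at 1.96-fold, was not counted as such. The remaining probe set was under the floor on both arrays. Of all detected genes, 5.90% had a ratio as high as that of Cd44 or higher. The log2 ratio of Cd44 was 2.24 above that of Selplg, or 3.25 times the SD of a difference. Both are receptors that support rolling on vessel walls, and PSGL-1 and CD44 both bind E-selectin when suitably glycosylated.

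**Figure D3:**
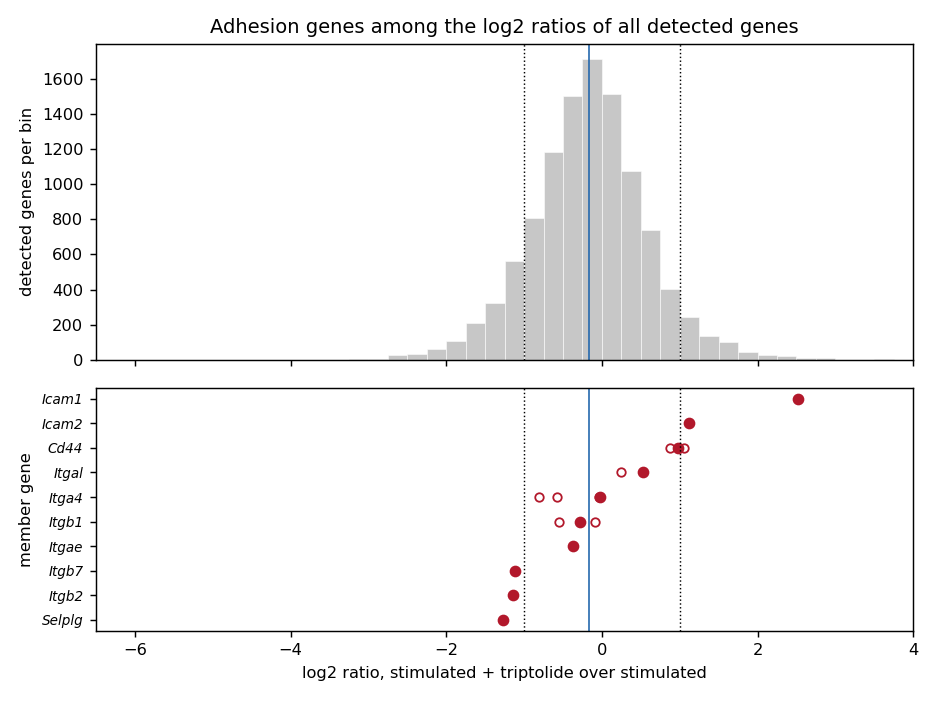
Upper panel: log2 ratios of stimulated cells with triptolide over stimulated cells for all 10883 detected genes, in bins of 0.25 (1 bar per bin). Lower panel: the 10 adhesion genes on the same axis, the brightest probe set filled and other detected probe sets open, with dotted lines at 2-fold and a blue line at the median of all detected genes (-0.16). Icam1 stands apart at 2.52, and the others lie between -1.27 and 1.11.

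The wider adhesion machinery was described with 6 further lists. Of the 35 listed genes that switch integrins on or signal from them, 33 had a probe set and 29 were detected. Of these, 9 were at least 2-fold lower and 1 was higher, with a median log2 ratio of -0.44 against -0.16 for all detected genes. The lower genes made up 31.0% of those detected in the list, against 12.3% of all detected genes. Of all detected genes, 5.60% were at least 2-fold higher. Of the T cell markers, 38.5% were at least 2-fold lower as well, and the part that a general difference in T cell transcripts has in the list was not tested. The lists were chosen with results of these arrays known, and no test of a list was made.

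Several of the lower genes act in the path by which the T cell receptor activates LFA-1. Skap2, an adaptor of leukocyte integrin signalling, had a signal of 201 with triptolide and 637 without on its brightest probe set (log2 ratio -1.66), and another measured one gave a log2 ratio of -0.87. Fyb encodes ADAP, the adaptor that couples the T cell receptor to integrins together with the Skap1 product. It had a signal of 1538 with triptolide and 4692 without (log2 ratio -1.61, and -1.05 on its other probe set). For Vcl, the gene of the actin linker vinculin, the signal was 62.7 with triptolide, under the floor, and 334 without, at least 2.82-fold lower.

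The other lower genes of the list were nearer to 2-fold. Rasgrp1, an exchange factor for Ras downstream of the T cell receptor, had a log2 ratio of -1.26, and its 4 probe sets lay between -2.01 and -1.16. Rassf5, whose product RAPL binds active RAP1 and the LFA-1 α chain, had one of -1.14 (-0.91 on the other probe set). Skap1 had a log2 ratio of -1.12 and Parvg one of -1.36. Rasgrp2, a RAP1 exchange factor, had one of -1.06 on its brightest probe set, but -0.75, within 2-fold, on its other measured one. Sipa1, a GTPase-activating protein that turns RAP1 off, was lower as well, at -1.21, while Rapgef1, another RAP1 exchange factor, was just within 2-fold at -0.995.

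Not every component followed. Stk4, which encodes the kinase MST1 that acts with RAPL, was the only detected gene of the list at least 2-fold higher, at 7843 with triptolide and 3317 without (log2 ratio 1.24, with its 3 probe sets between 1.15 and 1.31). The RAP1 genes Rap1a and Rap1b had log2 ratios of -0.033 and -0.051 on their brightest probe sets. The other probe set of Rap1a was lower, at -0.71, and the 3 of Rap1b lay between -0.17 and 0.20. Tln1, whose product talin binds integrin β tails, had one of -0.14, and Fermt3, the kindlin of blood cells, one of -0.65, with its 4 probe sets between -1.30 and 0.52.

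**Figure D4:**
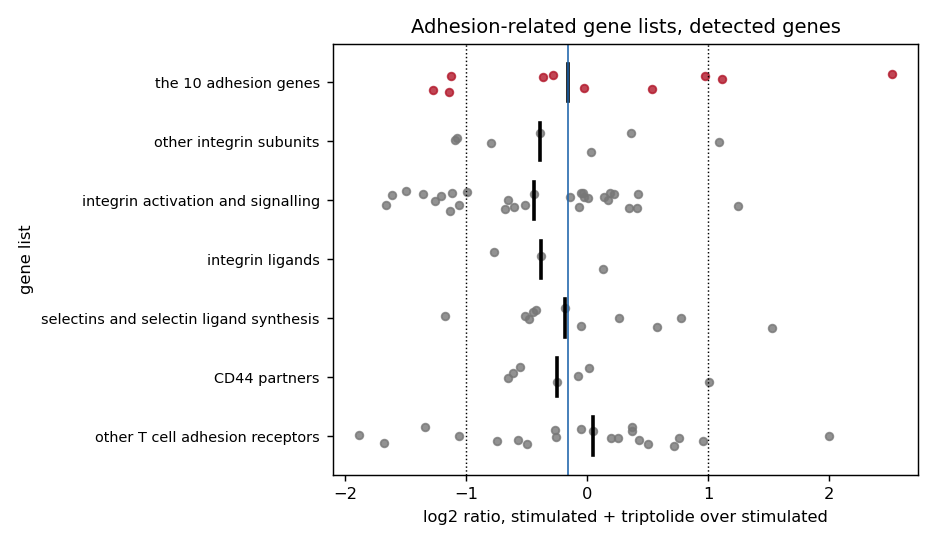
Log2 ratios of the detected genes of the 10 adhesion genes (red) and of 6 further adhesion lists (grey, jittered in height), with each list's median as a black bar, dotted lines at 2-fold and a blue line at the median of all detected genes. The integrin activation list reaches from -1.66 to 1.24 around a median of -0.44.

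Of 18 other integrin subunit genes with a probe set, 7 were detected and 11 were under the floor. Itgav, the brightest of them, was level at 1473 with triptolide and 1442 without (log2 ratio 0.031). Itga6, a laminin receptor chain, had a log2 ratio of -0.80, with its other probe set at -1.31. Itga2b, the αIIb chain of platelets, was 2.13-fold higher, at 407 with triptolide and 191 without. Its platelet partner Itgb3 was under the floor with triptolide, at 9.2 against 249 without, at least 2.10-fold lower, and Itga7 was at least 2.14-fold lower. The median of the 7 was -0.39.

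Of 9 other integrin ligand genes with a probe set, 6 were under the floor on both arrays. The 3 detected ones, Vcam1, Jam3 and Icam5, were above it on 1 array each, and none was 2-fold apart after flooring (median -0.38). Vcam1, the VLA-4 ligand, had a signal of 77.1 with triptolide, under the floor, and 201.5 without, at least 1.70-fold lower. Madcam1, the α4β7 ligand, and Icam4 were under the floor on both arrays, and Icam5 was under it without triptolide and barely above it with it (129 against 21.0).

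Selectins and the enzymes that make their ligands gave 1 gene at least 2-fold higher and 1 lower among 11 detected (median -0.18), where 5.60% and 12.3% of all detected genes were. St3gal6, a sialyltransferase, was higher on its brightest probe set, at 493 with triptolide and 171 without (log2 ratio 1.52), but another of its probe sets had a log2 ratio of -0.069. Selp, the P-selectin gene, was lower, at 186 with triptolide and 420.5 without (log2 ratio -1.18). Fut7, the fucosyltransferase that PSGL-1 needs for selectin binding, was under the floor on both arrays, at 9.3 with triptolide and 22.1 without.

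Of 7 detected genes listed as CD44 partners, 1 was at least 2-fold higher and 0 were lower (median -0.25), where 5.60% and 12.3% of all detected genes were. The higher one was Cd74, the invariant chain, which can signal through CD44 and is also a B cell marker, at 4385 with triptolide and 2190 without (2.00-fold). Msn, the moesin gene that links CD44 and PSGL-1 to actin, was level at a log2 ratio of 0.014, and the related Ezr gene had one of -0.65.

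Other adhesion receptors of T cells went both ways, with a median of 0.048. Of 21 detected, 4 were at least 2-fold lower (19.0%, against 12.3% of all detected genes). Only 1 was at least 2-fold higher, where 5.60% of all detected genes were. Cd96, a receptor for nectin-like ligands, was the highest, at 1600 with triptolide and 400 without (log2 ratio 2.00). The tetraspanin gene Cd81 was the lowest, at 500.5 with triptolide and 1848 without (log2 ratio -1.88). Pvr, which encodes the ligand CD155, had a log2 ratio of -1.68 and Cd2, the receptor for CD48, one of -1.34. For Alcam the brightest probe set gave -1.06, but its 4 measured probe sets ranged from -1.12 to 0.17.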

How the data were processed

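Total RNA was hybridised to Affymetrix 3′ expression arrays, 1 array per condition, and grouped by source name. The authors deposited 1 linear signal intensity per probe set, from MAS5 (per the submitters' processing notes), whose version and scaling settings the labels do not give. Trimmed by 2%, the mean of the 100 probe sets at the head of the table was 2000 on each array, and that of all probe sets 340 with triptolide and 383 without, so other levels appear to rest on those 100.

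Of 45037 probe sets, 34945 had 1 gene symbol, 932 several and 9160 none. Symbols were updated through Entrez numbers with the RefSeq gene table (GRCm38.p6, 34741 found). The floor of 118 is the 95th percentile of 85 chemosensory receptor probe sets on the triptolide array (108 without triptolide). From the deposited intensities, log2 ratios of floored values were computed with Python 3.11.15 and pandas 2.3.3, and a fold with 1 side at the floor is written "at least". No test between conditions is possible, and the number of arrays limits the precision. The calculation was tested on simulated data. The members and lists were chosen with earlier results of these data known. Named were the 10 members, and of each further list up to 3 genes per direction beyond 2-fold. Any other list gene named was chosen for its role after its value was seen. Alternatives were 3 scalings, 4 treatments of the floor, 2 choices of probe sets and a limit to brighter genes.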

Additional observations from a re-analysis of the deposited data

How the results depend on the processing

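Under 10 alternatives, the 98 log2 ratios obtained for the 10 genes moved by less than the SD between probe sets (0.49). No ratio of a gene at least 2-fold apart changed sign. Icam1, Icam2, Itgb2, Itgb7 and Selplg each have 1 probe set, well above the floor. Their ratios could move only with the scaling or a pseudocount, so the other alternatives are no check on them. The ratio of Icam1 ranged from 2.39 to 2.67 and that of Selplg from -1.29 to -1.15. Genes close to 2-fold crossed that line: Cd44 was counted as higher after scaling to the median (3 genes higher) and after quantile normalization (3), in both of which Itgb7, at -0.997 and -0.92, was no longer counted as lower (2 genes lower). With a pseudocount equal to the floor, only Icam1 was counted as higher (1 gene), with Icam2 at 0.99, and 2 genes as lower. Itga4 ranged from -0.30 to 0.19. The median of the 10 genes was 0.051 after quantile normalization. Itgae was not counted without shared probe sets or among brighter genes. The difference between Icam1 and Itgb2 stayed between 3.50 and 3.67, and that between Itgal and Itgb2 between 1.53 and 1.68. These narrow ranges say little, because 1 scale factor per array cancels in a difference. For Icam1 and Itgb2 only the pseudocount (3.50) and quantile normalization (3.67) could change it. For Itgal and Itgb2 the median over probe sets (1.53) could do so too. Over all genes, 609 were at least 2-fold higher and 1344 lower, against 1040 higher and 1915 lower with no floor. Among the fewer genes that averaged 4 times the floor or more, 279 were higher and 701 lower. After quantile normalization, which evens out the arrays by construction, 856 were higher and 884 lower. No paired analysis was possible because each condition has 1 array, and for the same reason no replicate could be left out. Dim probe sets near the floor limit what can be said of Itgae and part of Itga4.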
